A study of Mus musculus with 2 samples.

Results

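Fgf8-low epiblast cells are cells of the E7 mouse embryo that carry transcripts of pluripotent epiblast, hold few or no *T* and *Mixl1* transcripts, which mark the primitive streak, and show at most 2 unique molecular identifiers (UMIs, each standing for 1 captured transcript) of *Fgf8*. They were chosen by UMI limits on single genes: at least 2 of *Pou5f1*, at least 5 of *Pou3f1*, *Slc7a3* and *Utf1* together, at most 1 of *T* and *Mixl1* together, and upper limits on markers of mesoderm, node and endoderm, extraembryonic ectoderm and visceral endoderm. The limits were applied to barcodes with at least 5000 detected genes and at most 10% mitochondrial UMIs. They found 248 cells among 1655, of which 161 were from the control library and 87 from the *Yap1* cKO library. Since these limits chose the cells, the levels of the genes used in them are a description and were left out of the comparisons.

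The study asked how loss of YAP1, the transcriptional co-activator at the end of the Hippo pathway, affects gastrulation. Embryos of each genotype were pooled before dissociation, and each pool was measured in 1 droplet library that counts the 3′ ends of transcripts. *Yap1* cKO embryos carried Sox2-Cre and 2 floxed *Yap1* alleles. Control embryos are called wild type in the sample labels, heterozygous floxed embryos with Sox2-Cre in the study's account of this experiment, and floxed littermates without Cre in its account of the mice. Sox2-Cre recombines in the epiblast and its descendants and not in extraembryonic tissue, so that extraembryonic cells of the cKO embryos keep at least 1 *Yap1* allele. The study considers it likely that extraembryonic tissue of floxed embryos, of controls as of cKO, lacks the allele from the father, so extraembryonic ectoderm is not a comparison with full *Yap1* dosage in either library. With 1 library per genotype no test could be made between genotypes. All intervals are exact 95% intervals that cover counting error only, and differences between the genotypes cannot be told apart from differences between embryos, pools or libraries.

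The epiblast is the epithelial layer from which all tissues of the fetus arise. On its posterior side, NODAL from the epiblast, WNT3 and BMP4 from the adjacent extraembryonic ectoderm raise *T*, *Eomes* and *Fgf8*, and cells there enter the primitive streak, while anterior and distal epiblast cells keep *Otx2* and *Sox2* and form ectoderm. When Hippo kinases are inactive, YAP1 enters the nucleus and binds DNA through TEAD proteins. Well known targets of YAP1 and TEAD include secreted matricellular proteins such as CCN1 and proteins that act on YAP1 itself: AMOTL2 and LATS2 restrain it, and AJUBA inhibits the LATS kinases.

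The control library held 70573418 UMIs in 1829 barcodes, 791 of which passed the quality limits, and the *Yap1* cKO library 87937858 UMIs in 1897 barcodes, 864 of which passed. The 161 control members held 12509403 UMIs with a median of 72020 per cell (from 31558 to 202838), and the 87 cKO members 7037193 UMIs with a median of 68710 (from 22382 to 304427). They had a median of 8040 and 8004 detected genes. Mitochondrial genes took 0.824% and 0.763% of their UMIs and ribosomal protein genes 23.2% and 22.7%, so that depth and RNA composition were close in the members of both libraries. The libraries shared 2 cell barcodes, and none of the members' barcodes was among them. A doublet caller marked 4 control and 19 cKO cells, of which 0 were members.

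Most of the cells were removed by the epiblast and the *Fgf8* limits. In the control library the *Pou5f1* limit left 415 cells, the limit on *Pou3f1*, *Slc7a3* and *Utf1* 317, the streak limit 264 and all lineage limits 251, of which 161 passed the *Fgf8* limit. In the cKO library the same steps left 460, 356, 248, 227 and 87 cells. The streak limit thus took 53 control cells and 108 cKO cells, and the *Fgf8* limit 90 and 140.

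Of the 5 genes that mark these cells (*Pou5f1*, *Pou3f1*, *Slc7a3*, *Utf1* and *Sox2*), *Sox2*, a transcription factor of pluripotent and early neural cells, is the 1 that the limits did not use. Its level in members was 120 CPM (counts for each 1000000 UMIs of the population) in the control and 130 CPM in the cKO library, with a median of 9 UMIs per cell in each. In gated epiblast cells with at least 3 *Fgf8* UMIs, called Fgf8-high below, it was 98.2 and 93.2 CPM, and in primitive streak cells (the same limits on *Pou5f1* and the other lineages, but *T* and *Mixl1* together at least 2 UMIs) 34.6 and 50.6 CPM. *Sox2* was therefore highest in the members among these embryonic populations, and others were not measured. It did not set the members apart from extraembryonic ectoderm cells (*Elf5*, *Wnt7b* and *Esrrb* together at least 5 UMIs and *Pou5f1* at most 1), which held 122 and 121 CPM. *Pou3f1* was at 409 and 390 CPM in members and 489 and 421 CPM in extraembryonic ectoderm, and *Utf1* at 644 and 674 CPM against 497 and 499 CPM. The amino acid transporter gene *Slc7a3* was at 163 and 166 CPM in members and 0.475 and 0.253 CPM in extraembryonic ectoderm, and *Pou5f1* at 95.4 and 92.5 CPM in members. These 4 genes are in the limits, so their levels only describe the choice of cells.

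Among gated epiblast cells of any *Fgf8* level, 161 of 251 control cells (64.1%, exact binomial interval 57.9 to 70.1%) and 87 of 227 cKO cells (38.3%, 32.0 to 45.0%) were Fgf8-low. *Fgf8* encodes a growth factor that cells of the streak need to move away from it. In the control library 88 gated cells held 0 *Fgf8* UMIs, 49 held 1 and 24 held 2, and in the cKO library 34, 30 and 23. The median was 1 and 5 UMIs and the highest cell held 64 and 107. When each cell was thinned to 38000 UMIs and then classed, the shares were 75.7% (187 of 247) and 54.1% (118 of 218), since fewer UMIs put more cells under the limit. Because *Fgf8* is the rule itself, these shares describe how the cells were chosen, and in pooled embryos more posterior cells, more *Fgf8* per cell and a later stage of some embryos cannot be told apart.

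**Figure D1:**
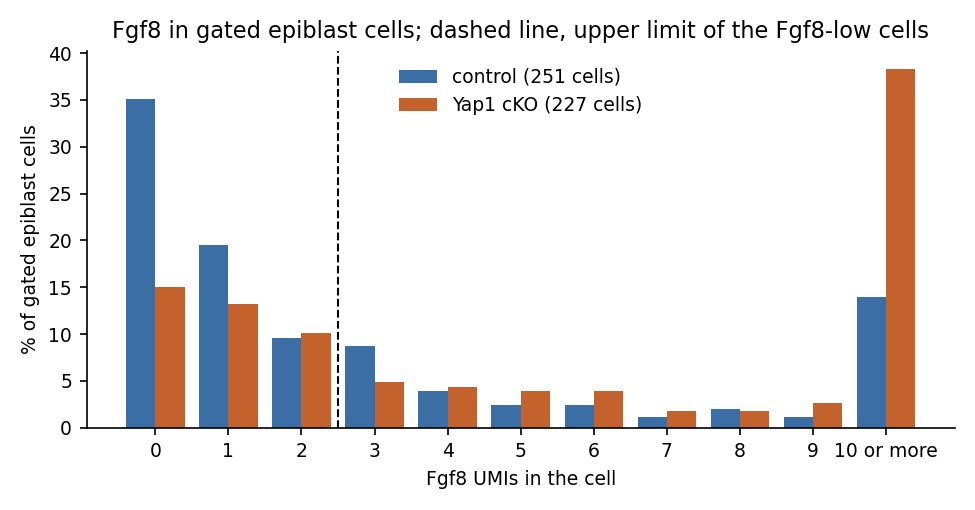
Share of gated epiblast cells (y axis, percent of the 251 control or 227 *Yap1* cKO cells) by the number of *Fgf8* UMIs in the cell (x axis; the last bars hold all cells with 10 or more). The dashed line is the upper limit of the Fgf8-low cells, and the control bars are the taller ones at 0 and 1 UMIs and the cKO bars at 10 or more.

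The libraries differed in the sex of their cells, and this moved with the share of Fgf8-low cells. Cells with at least 2 UMIs of Y-linked genes and none of *Xist* are called Y-bearing, and cells with the reverse Xist-bearing. Of the members, 88 of 161 control cells (54.7%) but 7 of 87 cKO cells (8.05%) were Y-bearing. In the control library 65.2% of Y-bearing (88 of 135) and 63.6% of Xist-bearing (68 of 107) epiblast cells were Fgf8-low. In the cKO library it was 15.6% (7 of 45, 6.49 to 29.5%) against 44.2% (76 of 172, 36.6 to 51.9%). Y-bearing cells come from male embryos, so that in the cKO pool the male embryos gave few Fgf8-low cells. In the control pool both sexes gave alike shares. Each pool held few embryos and the intervals count cells, so these shares describe the embryos pooled and not a sex. Values of Y-bearing cKO members below rest on 7 cells, and the Xist-bearing cells (68 control and 76 cKO) are the larger matched set.

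*Yap1* itself (chromosome 9, 7931999 to 8004596, minus strand, GRCm38) was counted 380 times in control and 8 times in cKO members, at 30.4 and 1.14 CPM, a ratio of 0.0374 (0.0160 to 0.0745). In the control library 141 of 161 members (87.6%) held at least 1 *Yap1* UMI. In the cKO library all 8 UMIs lay in 2 of 87 members (2.30%, 0.280 to 8.06%), with 4 UMIs each at 44.8 and 41.2 CPM. Control members had a median of 28.8 CPM and a highest value of 122 CPM, so that both cells lay within the control range. The first of these cells was Xist-bearing, with 1 *Amotl2* and 4 *Ajuba* UMIs, and the second Y-bearing, with 0 and 1. Of Fgf8-high cKO cells, 11 of 140 held *Yap1* UMIs, 16 in all and at most 3 in a cell. In extraembryonic ectoderm *Yap1* stood at 24.7 CPM (control) and 18.9 CPM (cKO) (ratio 0.763, 0.646 to 0.900). Which exons the floxed allele loses is not given in the sources used here, and 3′ counts may lie outside them, so the low count is in the direction of the labels but does not measure the allele.

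Known YAP1 targets were the list with the most genes lower in cKO members. Of its 15 genes, 11 had at least 100 UMIs over the members of both libraries, and of these 5 were at least 1.5-fold lower (*Amotl2*, *Lats2*, *Ajuba*, *Ptpn14* and *Wwc2*), 0 were at least 1.5-fold higher and 6 lay between. The median ratio was 0.794. Over all 9592 genes with at least 100 UMIs, 1.31% were at least 1.5-fold lower and 1.04% at least 1.5-fold higher, with a median ratio of 0.998. The lists were chosen with earlier results of these data known. From the same libraries the study had already reported lower *Amotl2*, *Ptpn14*, *Wwc2* and *Ccn1*. The count for this list is therefore a description and no independent support. In extraembryonic ectoderm, where Sox2-Cre is not active, the median ratio of the 11 genes was 0.965, beside 0.963 for all genes. In members with 0 *Fgf8* UMIs *Ptpn14* (ratio 0.684) and *Wwc2* (ratio 0.708) were not past 1.5-fold.

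*Amotl2*, an angiomotin family scaffold that holds YAP1 at cell junctions, had 22.1 CPM in control and 5.97 CPM in cKO members, a ratio of 0.271 (0.191 to 0.375). After thinning to 38000 UMIs 55.7% of control members held a UMI of it and 16.9% of cKO members, while in extraembryonic ectoderm, which expresses it, the shares were 70.6% and 64.8%. The control and cKO intervals of the members did not overlap, and those of extraembryonic ectoderm did, where the ratio of CPM was 0.870 (0.767 to 0.985). *Ajuba*, a LIM protein that inhibits the LATS kinases, had 40.2 and 16.5 CPM (ratio 0.410, 0.332 to 0.503) and had a ratio of 0.965 in extraembryonic ectoderm. *Lats2*, which encodes one of the kinases that phosphorylate YAP1, was at 9.83 and 3.84 CPM (ratio 0.390, 0.247 to 0.596) and *Ptpn14*, a phosphatase that binds YAP1, at 21.3 and 12.1 CPM (ratio 0.566). *Wwc2*, of the KIBRA family of LATS activators, was at 40.6 and 24.6 CPM (ratio 0.605). Apart from *Ajuba*, these encode proteins known to restrain YAP1. In Y-bearing members *Ptpn14* was at 19.1 and 18.6 CPM (ratio 0.969), and *Wwc2* had a ratio of 0.776. Of the 5 genes only *Ajuba* had an interval of the ratio below 1 in Y-bearing members (up to 0.910).

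*Ccn1*, which encodes a secreted matricellular protein, fell under the UMI minimum with 71 control and 7 cKO UMIs. It stood at 5.68 and 0.995 CPM (ratio 0.175, 0.0680 to 0.380) and had a ratio of 0.962 in extraembryonic ectoderm. The related *Ccn2* gave 3.76 and 2.98 CPM from 47 and 21 UMIs, with an interval of the ratio from 0.451 to 1.35, and 8.77 and 3.39 CPM in Fgf8-high cells (ratio 0.387, 0.264 to 0.563). The intervals of *Amot* (ratio 1.13), *Nf2* (0.984) and *Crim1* (0.998) spanned 1. *Amotl2* was at 23.2 and 5.69 CPM in Xist-bearing members and 21.2 and 8.24 CPM in Y-bearing ones, where the cKO value rests on 4 UMIs and the interval of the ratio reached 1.02. Without the 2 *Yap1*-bearing cells the ratio of *Amotl2* was 0.271 and that of *Ccn1* 0.180.

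**Figure D2:**
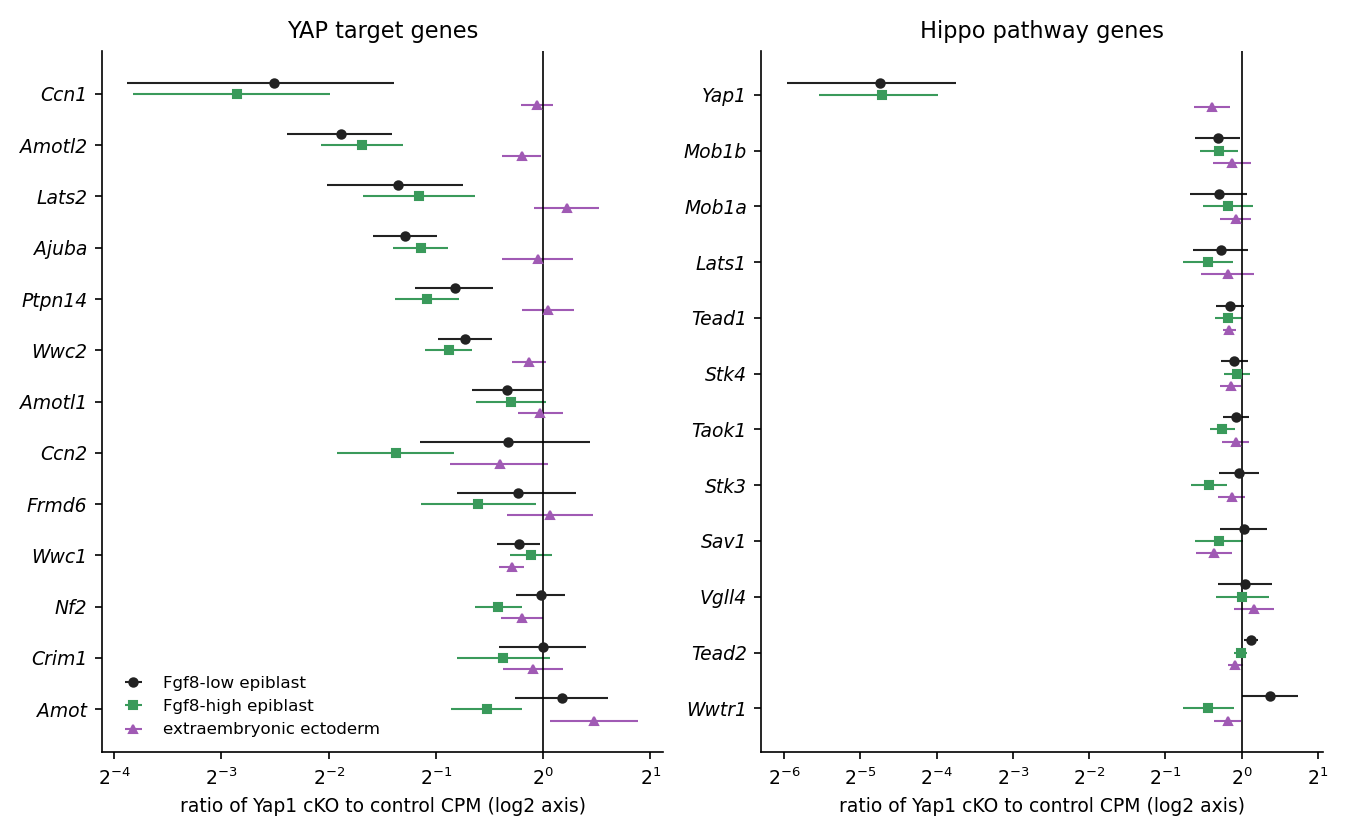
Ratio of *Yap1* cKO to control CPM (x axis, log2 scale) for genes of the YAP target list (left) and the Hippo list (right) with at least 50 UMIs in members, in Fgf8-low epiblast, Fgf8-high epiblast and extraembryonic ectoderm cells; bars are 95% counting intervals. *Ccn1*, *Amotl2*, *Lats2*, *Ajuba*, *Ptpn14* and *Wwc2* have intervals left of 1 in both epiblast populations and lie closer to 1 in extraembryonic ectoderm, and on the right *Yap1* is the gene far from 1.

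The promoters of the target list held the core of the TEAD binding motif more often than promoters did in general. GGAATG, or CATTCC on the other strand, lay within the window from 250 bases before to 50 after the start in 9 of the 14 list genes found in RefSeq's GRCm38.p6 promoter table, and in 16.6% of all 27025 genes there. The list was drawn up from known targets, so the count describes it and is no evidence on binding in these cells. Of the 6 genes shown above with ratios from 0.175 to 0.605, each had the motif, in *Lats2* 5 bases after the start. So did *Crim1*, with a ratio of 0.998, *Axl*, with 11 and 4 UMIs, and *Ankrd1*, with none. The stretches of *Ccn1*, *Amotl2* and *Ajuba* are printed because these had the lowest ratios of the list with the motif before the start. They read 5′ to 3′ on the strand of the gene, end before the transcription start, and have the motif in capitals. In *Ccn1* it begins 103 bases before the start, in *Amotl2* 65, and in *Ajuba* 186 and 164. The *Ccn1* stretch is chr3:145650033-145650138 on the minus strand, that of *Amotl2* chr9:102717689-102717794 on the plus strand, and that of *Ajuba* chr14:54577770-54577897 on the minus strand.
Ccn1: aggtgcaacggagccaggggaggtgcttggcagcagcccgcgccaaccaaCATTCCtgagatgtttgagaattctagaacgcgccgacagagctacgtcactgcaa
Amotl2: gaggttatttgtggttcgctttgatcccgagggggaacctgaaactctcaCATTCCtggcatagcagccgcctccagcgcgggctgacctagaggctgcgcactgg
Ajuba: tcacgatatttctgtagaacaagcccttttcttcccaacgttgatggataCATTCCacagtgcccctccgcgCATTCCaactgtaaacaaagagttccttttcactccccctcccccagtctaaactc

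Apart from *Yap1*, the Hippo pathway genes compared differed little. Of 14 genes 12 were compared, and *Yap1* was the 1 past 1.5-fold. The DNA binding partners *Tead1* (55.4 and 49.9 CPM) and *Tead2* (200 and 218 CPM) had ratios of 0.900 and 1.09, and the kinases *Stk3* and *Stk4* 0.981 and 0.938. *Wwtr1*, which encodes TAZ, the paralogue of YAP1, had 11.99 CPM among control and 15.5 CPM among cKO members (ratio 1.29, 0.9999 to 1.66), whereas in Fgf8-high cells it was at 16.03 and 11.9 CPM (ratio 0.739, 0.585 to 0.935). The 2 populations lay on different sides of 1, and the difference between them was not tested.

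*Nodal*, the ligand that maintains the epiblast and induces the streak, was sparse in the members and more abundant in those of the cKO library. It was counted 55 times in control members (4.40 CPM) and 60 times in cKO members (8.53 CPM), a ratio of 1.94 (1.32 to 2.85). Its level was 3.87 and 8.54 CPM in Xist-bearing members (ratio 2.21, 1.30 to 3.90) and 4.17 and 10.3 CPM in Y-bearing ones, where the cKO value rests on 5 UMIs. After thinning, 17.1% of control and 24.1% of cKO members held a *Nodal* UMI, with overlapping intervals (11.6 to 23.9% and 15.4 to 34.7%). Of extraembryonic ectoderm cells at the same depth, which should lack the gene, 1.76% and 4.40% held one. In Fgf8-high cells *Nodal* stood higher, at 27.9 and 35.7 CPM (ratio 1.28, 1.09 to 1.5).

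Other genes of the NODAL list with enough UMIs to compare stayed within the fold used here. Of 23 genes 16 were compared, and *Nodal* was the only one past 1.5-fold, with a median ratio of 0.966. The co-receptor *Tdgf1* was at 40.6 and 32.3 CPM (ratio 0.794, 0.676 to 0.931). The receptors *Acvr2a*, *Acvr2b* and *Acvr1b* had ratios of 0.906, 1.02 and 1.34, and the signal transducers *Smad2*, *Smad3* and *Smad4* 0.944, 0.851 and 0.844. The target genes *Pmepa1* and *Smad7*, which restrain the pathway, were at 26.9 and 33.3 CPM (ratio 1.24, 1.04 to 1.47) and at 48.5 and 58.7 CPM (ratio 1.21, 1.06 to 1.37). In Xist-bearing members the ratios of *Pmepa1* and *Smad7* were 0.983 (0.797 to 1.21) and 1.12 (0.955 to 1.32). The antagonist *Lefty2*, another target, had 24 and 7 UMIs, too few to compare. *Eomes*, a streak transcription factor that NODAL induces, was at 21.3 and 19.6 CPM (ratio 0.919, 0.743 to 1.13). The study also counts *Id1* and *Nanog* among the direct targets of SMAD2 and SMAD3. Here they are on the BMP and pluripotency lists and are given below, and *Id1* had a ratio of 3.07.

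Along *Fgf8* the level of *Nodal* was higher at more UMIs in both libraries. In cells with 0 *Fgf8* UMIs it was 3.17 CPM among control and 7.33 CPM among cKO cells, with 1 to 2 UMIs 5.64 and 9.12 CPM, with 3 to 5 UMIs 11.04 and 14.2 CPM, with 6 to 10 UMIs 30.5 and 23.4 CPM (17 control cells), and with over 10 UMIs 43.1 and 46.0 CPM. The ratio at 0 *Fgf8* UMIs was 2.31 (1.14 to 4.64) and at 1 to 2 UMIs 1.62 (1.01 to 2.60). The intervals of the levels themselves overlapped in every bin, and at 6 to 10 UMIs the control level was the higher one. Just inside the *Fgf8* limit, the cells with 2 UMIs (24 control and 23 cKO) had 4.39 and 10.8 CPM of *Nodal*, and just outside, the cells with 3 UMIs (22 and 11) had 8.98 and 12.9 CPM. *Amotl2* showed no such slope: it was 22.7 and 6.46 CPM at 0 UMIs, 21.4 and 5.72 CPM at 1 to 2 UMIs and 22.9 and 6.66 CPM at over 10 UMIs.

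**Figure D3:**
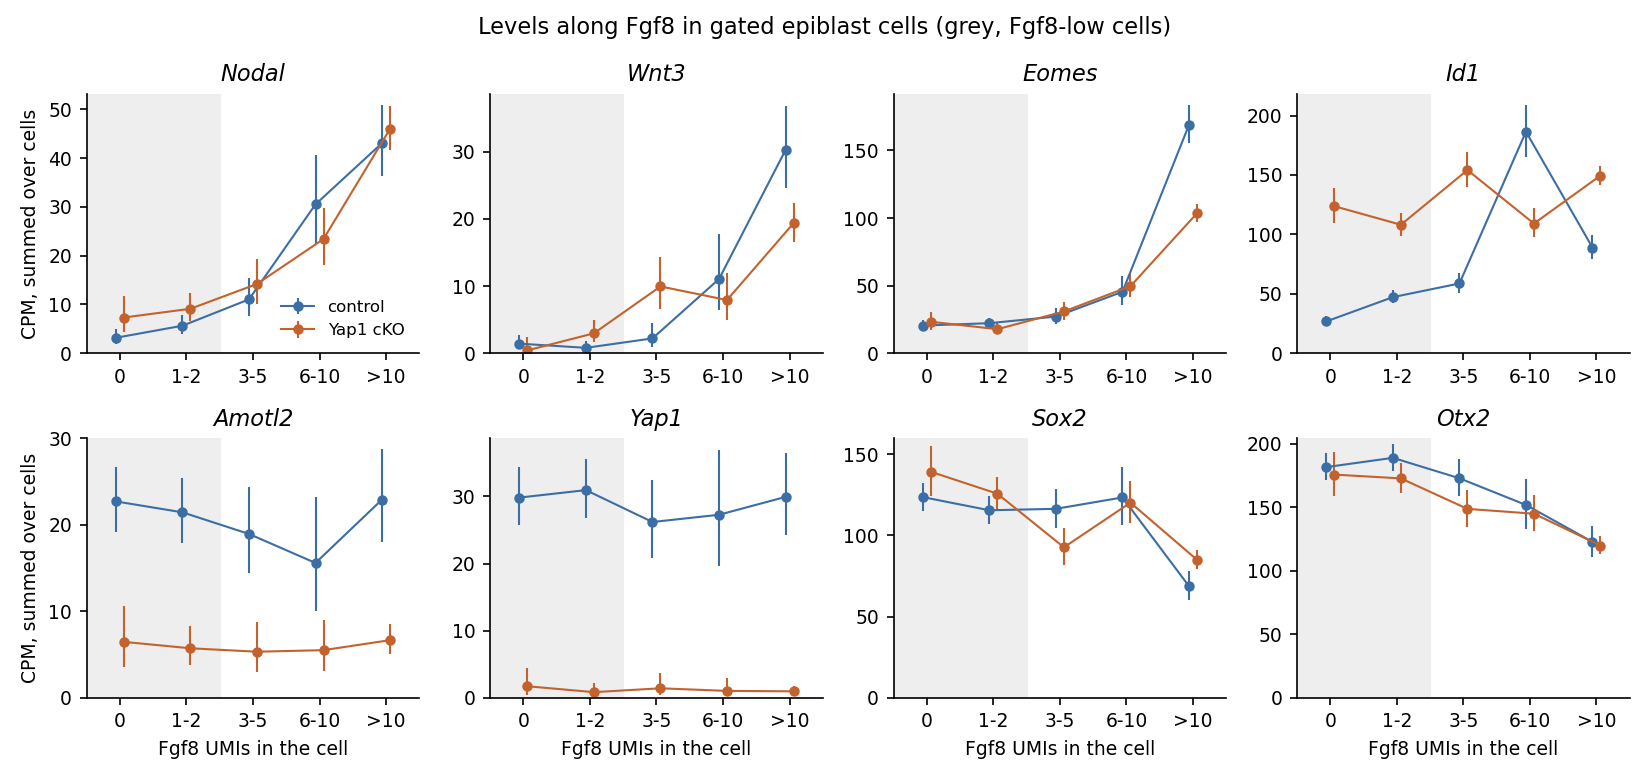
Level of 8 genes (y axis, CPM of UMIs summed over cells, with 95% Poisson intervals) in gated epiblast cells by their number of *Fgf8* UMIs (x axis), in the control and the *Yap1* cKO library; the grey area holds the Fgf8-low cells. *Nodal*, *Wnt3* and *Eomes* are highest at over 10 UMIs in both libraries, *Amotl2* and *Yap1* are lower in the cKO library in every bin, and *Id1* is higher in the cKO library in every bin but that of 6 to 10 UMIs. The bin of 6 to 10 UMIs in the control library holds 17 cells.

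*Id1*, which encodes an inhibitor of basic helix-loop-helix factors and is a direct target of BMP signals, had the highest ratio of the genes named by the rule for single genes given below. Control members had 36.9 CPM and cKO members 113 CPM, a ratio of 3.07 (2.73 to 3.45). Per cell it was uneven: the median control member had 0 CPM and the median cKO member 32.2 CPM, and the highest cells had 673 and 620 CPM. After thinning 29.1% of control and 59.0% of cKO members held a UMI, and the intervals (22.2 to 36.9% and 47.7 to 69.7%) did not overlap. In extraembryonic ectoderm, which expresses *Id1*, the shares were 81.2% and 86.8%.

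Part of the pooled *Id1* ratio moved with the sex of the cells. Xist-bearing members had 54.3 CPM (control) and 117 CPM (cKO; ratio 2.16, 1.88 to 2.49), and Y-bearing members 25.9 and 59.8 CPM (ratio 2.31, 1.5 to 3.43). Within each library the Xist-bearing members were thus the higher ones, and within each sex class the cKO members were. At 0 *Fgf8* UMIs the levels were 26.8 and 124 CPM (ratio 4.61, 3.80 to 5.61), at 1 to 2 UMIs 47.2 and 108 CPM (ratio 2.29, 1.98 to 2.65), and in Fgf8-high cells 95.7 and 143 CPM (ratio 1.49, 1.37 to 1.62).

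The related *Id2* was at 16.6 and 31.8 CPM (ratio 1.92, 1.58 to 2.33) and *Id3* at 354 and 489 CPM (ratio 1.38, 1.32 to 1.44). In Y-bearing members *Id3* was at 339 and 369 CPM (ratio 1.09, 0.929 to 1.27). Of the BMP list 9 of 16 genes were compared, 2 were at least 1.5-fold higher (*Id1* and *Id2*), 0 at least 1.5-fold lower, and the median ratio was 1.20. The receptors *Bmpr1a* (72.3 and 71.9 CPM), *Bmpr2* (ratio 1.20) and *Acvr1* (0.989) and the transducers *Smad1* (0.895) and *Smad5* (0.918) had intervals that spanned 1. *Bambi*, a decoy receptor that BMP induces, was at 13.9 and 18.1 CPM (ratio 1.30, 1.02 to 1.64), and *Msx1*, another BMP target, had 22 and 23 UMIs. *Bmp4* itself was counted 22 and 10 times.

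WNT genes showed no common direction. Of 23 genes 14 were compared, 1 was at least 1.5-fold higher and the median ratio was 0.966. The higher one was *Wnt5b*, a ligand of the non-canonical branch, at 7.28 and 11.7 CPM (ratio 1.60, 1.17 to 2.18). Its ratio was 1.66 in Xist-bearing members, 1.12 (0.295 to 3.06) in Y-bearing members and 0.904 (0.689 to 1.19) in Fgf8-high cells. The receptor *Fzd7* was at 39.2 and 26.9 CPM (ratio 0.684, 0.576 to 0.811). *Axin2*, a feedback inhibitor that reads out canonical WNT activity, fell under the UMI minimum with 41 and 52 UMIs, at 3.28 and 7.39 CPM (ratio 2.25, 1.47 to 3.48), and had 16.9 and 16.3 CPM in Fgf8-high cells. *Wnt3*, the canonical ligand of the posterior epiblast, was counted 14 and 15 times, and its interval of the ratio (0.857 to 4.26) spanned 1, with 1.43 and 0.431 CPM at 0 *Fgf8* UMIs and 0.806 and 2.97 CPM at 1 to 2. β-catenin (*Ctnnb1*, ratio 0.887) and the repressor *Tcf7l1* (0.962) were closer to 1.

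The FGF pathway held 1 gene past the threshold among the 11 of 15 compared, with a median ratio of 0.939. *Egr1*, an immediate early gene downstream of ERK, was at 8.95 and 4.55 CPM (ratio 0.508, 0.332 to 0.758) and had a ratio of 0.539 in Fgf8-high cells. With the gate applied after thinning its log2 ratio was -0.34, against -0.98, and it was no longer past 1.5-fold. The feedback inhibitors of ERK signalling were close to 1, with *Spry2* at 0.990, *Spry4* at 1.06 and *Dusp6* at 1.003. The receptors *Fgfr1* and *Fgfr2* were at 0.822 and 0.949. *Fgf4*, a ligand of early epiblast, had 72 and 24 UMIs (ratio 0.593, 0.357 to 0.952), under the UMI minimum.

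The identity genes of the epiblast with enough UMIs to compare stayed within the fold used here, but for 1. Of the pluripotency list, 9 of 12 genes were compared and 0 were past 1.5-fold in either direction, with a median ratio of 0.928. *Nanog* was at 19.2 and 22.9 CPM (ratio 1.19, 0.971 to 1.46), *Sall4* at 228 and 212 CPM, and the RNA binding protein gene *Lin28a* at 154 and 130 CPM (ratio 0.844). Of 10 genes of naive pluripotency 1 reached the UMI minimum, *Dppa5a*, at 37.1 and 40.1 CPM (ratio 1.08). *Fgf4*, given above with the FGF genes as lower in cKO members, is also on the naive list and fell under the minimum. Of the list of primed epiblast genes 12 of 12 were compared, with 1 higher, 0 lower and a median of 0.997: *Fgf5* stood at 138 and 125 CPM, *Epcam* at 824 and 844 CPM and *Foxd3* at 68.4 and 56.7 CPM (ratio 0.829, 0.734 to 0.934). The higher one was *Cdh2*, the N-cadherin gene, at 17.6 and 31.6 CPM (ratio 1.79, 1.48 to 2.17). Its ratio was 2.02 in Xist-bearing and 1.23 in Y-bearing members, and 0.911 in Fgf8-high cells. With the gate applied after thinning the log2 ratio of *Cdh2* was 0.54, against 0.84, and it was no longer past 1.5-fold.

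Anterior and ectoderm genes held none past the fold among those compared. Of 11 genes 6 were compared and 0 were past 1.5-fold, with a median ratio of 0.969. *Otx2*, which anterior epiblast needs, was at 185 and 174 CPM, *Sox11* at 166 and 166 CPM and *Sox3* at 46.8 and 41.5 CPM. *Sox1*, *Six3*, *Hesx1* and *Lhx5*, which mark more mature neural or forebrain tissue, had at most 35 UMIs each over both libraries. Of the streak list 2 of 13 genes reached the UMI minimum. One was *Eomes*, and the other *Fst*, which encodes follistatin, an activin antagonist, at 20.1 and 37.4 CPM (ratio 1.86, 1.56 to 2.22). *Fst* was higher in Xist-bearing cKO members (40.7 CPM against 17.4) and lower in the Y-bearing ones (6.18 CPM from 3 UMIs, against 21.9). At 0 *Fgf8* UMIs the ratio of *Fst* was 1.38 (1.02 to 1.85), which is not past 1.5-fold.

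Of DNA methylation genes, a list that holds the YAP1 partner *Qser1* which the study examined, 8 of 10 were compared and 0 were past 1.5-fold, with a median ratio of 0.936. The de novo methyltransferase *Dnmt3b* was abundant, at 1426 and 1326 CPM (ratio 0.930, 0.907 to 0.953), but the ratio was 1.01 (0.933 to 1.09) in Y-bearing and 0.997 (0.965 to 1.03) in Xist-bearing members. *Dnmt3a* was at 144 and 136 CPM. The demethylation enzyme gene *Tet1* was at 140 and 132 CPM and *Qser1*, whose product protects DNA from de novo methylation, at 143 and 123 CPM (ratio 0.861, 0.792 to 0.934, and 0.819 to 1.004 in Xist-bearing members).

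Growth and metabolism genes with enough UMIs to compare differed by less than the fold used here. Of 15 replication genes and 12 mitosis genes all were compared and 0 were past 1.5-fold, with median ratios of 1.02 and 1.05. Of the p53 and MYC list 13 of 14 genes were compared, which had 0 past 1.5-fold and a median of 1.03. *Cdkn1a*, a p53 target, fell under the UMI minimum with 32 control and 29 cKO UMIs. The members held 12509403 and 7037193 UMIs in all, so these counts are not equal levels. Of the 17 glycolysis genes 0 were past 1.5-fold and the median was 1.11. Within that list 10 genes had intervals above 1 and 4 below, beside 10.6% and 10.9% of all 9592 genes. The 4 were the glucose transporter genes *Slc2a1* (271 and 191 CPM, ratio 0.704, 0.661 to 0.750) and *Slc2a3* (0.812), *Hk2* (0.919) and *Eno1* (0.958), and the highest ratio of all 17 was that of *Gapdh* (2911 and 3725 CPM, ratio 1.28, 1.26 to 1.30). In Xist-bearing members *Gapdh* had a ratio of 1.27 and in Y-bearing members of 0.982, and the intervals of *Slc2a3*, *Hk2* and *Eno1* spanned 1 in Xist-bearing members. In extraembryonic ectoderm *Gapdh* had a ratio of 1.22 and *Slc2a1* of 0.877. All 10 genes of the mitochondrial genome had ratios between 0.821 and 0.986, with a median of 0.924, beside 0.889 in extraembryonic ectoderm.

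Of the epithelial genes 11 of 12 were compared and 0 were past 1.5-fold, with a median ratio of 0.991. E-cadherin (*Cdh1*) was at 130 and 112 CPM (ratio 0.862, 0.790 to 0.939). Among the 8 mesenchymal genes 4 were compared, with 1 at least 1.5-fold higher, 0 lower and a median of 1.27. *Zeb2*, a repressor of E-cadherin, was at 11.3 and 21.9 CPM (ratio 1.93, 1.52 to 2.44), with 1.85 in Xist-bearing members and 8.24 against 10.6 CPM in Y-bearing ones. *Vim*, the vimentin gene, was at 24.1 and 33.8 CPM (ratio 1.40, 1.18 to 1.67).

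Few genes were far apart between the members of both libraries. Among the 9592 genes, 126 were at least 1.5-fold lower and 100 at least 1.5-fold higher in cKO members. By the rule for single genes (intervals that do not overlap, the same direction in both sex classes and no cell with over 25% of the UMIs), the 10 lowest were *Yap1*, *Amotl2*, *Steap3* (0.334), *Rpl10-ps3* (0.343), *Lats2*, *Gm49890* (0.393), *Tex21* (0.409), *Ajuba*, *Samd4* (0.419) and *Gk* (0.420). Of these 10, *Amotl2*, *Lats2* and *Ajuba* are on the list of YAP1 targets. *Tex21* was apart at 1 to 2 *Fgf8* UMIs (ratio 0.142) and not at 0 (ratio 1.16, 0.713 to 1.85), and its ratio was 1.39 in Fgf8-high cells. It was not past 1.5-fold with up to 5 *Fgf8* UMIs (log2 ratio -0.36) or with the gate after thinning (-0.22). *Steap3*, a ferrireductase gene, was at 8.07 and 2.70 CPM and had a ratio of 1.12 (0.529 to 2.32) in extraembryonic ectoderm. *Samd4*, which encodes an RNA binding repressor of translation, was at 8.47 and 3.55 CPM with a ratio of 1.58 (0.791 to 3.16) there. In Fgf8-high cells *Steap3* had a ratio of 0.640 (0.431 to 0.954), *Samd4* of 0.545 (0.395 to 0.750) and *Gm49890* of 0.590. *Gk* was not lower in those cells (ratio 1.13, 0.7975 to 1.61). *Rpl10-ps3*, a pseudogene that shares sequence with a ribosomal protein gene, had a ratio of 0.378 in extraembryonic ectoderm too, and its reads may be those of the gene it copies.

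The 10 highest were *Id1*, *Rep15* (2.36), *6330403K07Rik* (2.07), *Spink1* (2.06), *Nodal*, *Asap3* (1.93), *Id2*, *Lpar1* (1.91), *Baz1a* (1.85) and *Ndst1* (1.81). *Rep15* was at 3.92 and 9.24 CPM. *Lpar1*, a receptor for lysophosphatidic acid, a signal that activates YAP1 in cultured cells, was at 5.52 and 10.5 CPM (1.36 to 2.69). In Fgf8-high cells the ratio of *Lpar1* was 0.997 (0.717 to 1.40) and that of *Ndst1* 0.869 (0.589 to 1.295). *Asap3* stood at 2.435 there, *6330403K07Rik* at 1.35 and *Rep15* at 1.295 (0.848 to 2.02). *Baz1a*, a subunit of chromatin remodelling complexes, was at 14.8 and 27.4 CPM (1.51 to 2.28) and had a ratio of 1.64 in Fgf8-high cells. *Spink1*, which visceral endoderm expresses, was at 4.96 and 10.2 CPM in members, and its ratio was 2.68 in Fgf8-high cells and 2.45 in extraembryonic ectoderm.

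A further 16 genes had ratios as high as these and missed a condition of the rule, 12 of them because a sex class went the other way or held no UMI and 7 because 1 cell held over 25% of the UMIs. *Cdk5rap1*, a tRNA modifying enzyme gene chosen here after its values were seen, had the highest ratio of all: 6.40 and 31.8 CPM (ratio 4.98, 3.84 to 6.51). In Xist-bearing members its ratio was 7.58 and in Fgf8-high cells 0.988, and the 7 Y-bearing cKO cells held 3 UMIs. The 338 X-linked genes compared had a median ratio of 0.990, with 6 at least 1.5-fold higher and 8 at least 1.5-fold lower.

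**Figure D4:**
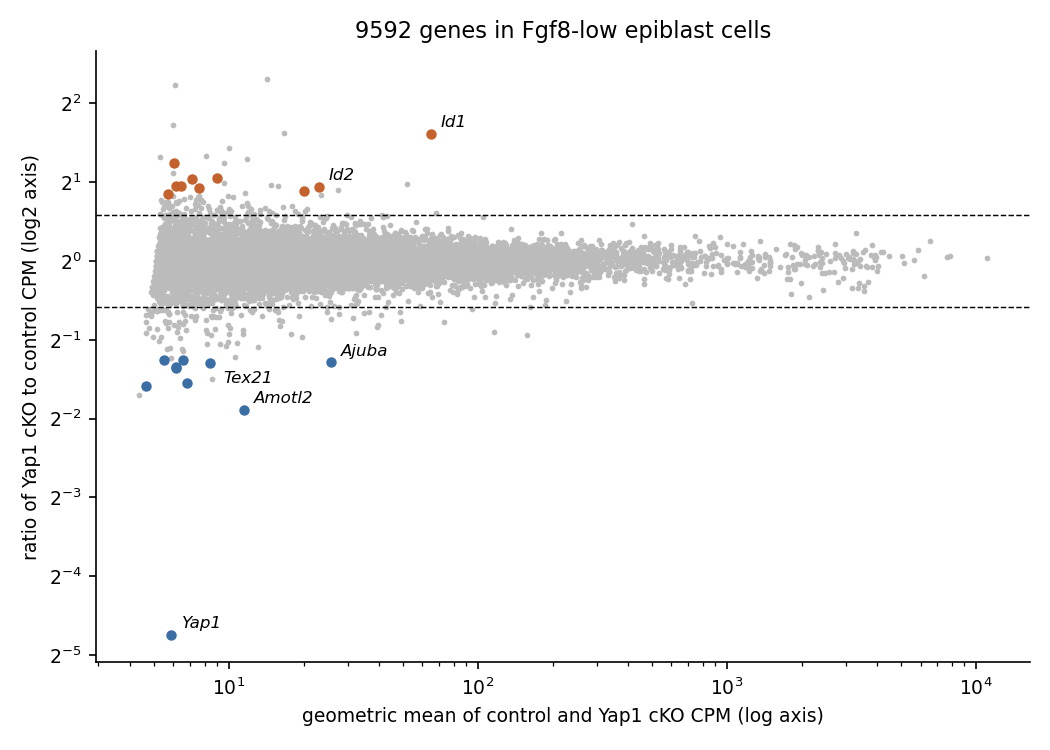
Ratio of *Yap1* cKO to control CPM (y axis, log2 scale) against the geometric mean of both levels (x axis, CPM, log scale) for the 9592 genes compared in Fgf8-low epiblast cells; dashed lines mark 1.5-fold, blue points the 10 lowest and orange points the 10 highest genes by the rule. Most genes lie within the dashed lines, *Yap1* is farthest below, and *Id1* is the most abundant of the named genes that are higher.

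Against Fgf8-high epiblast cells (90 control and 140 cKO) 2.03% of the 11208 genes with at least 100 UMIs over both populations had intervals of the ratio below 1 in both libraries, and 3.20% above. Of the 13 streak genes 5 had that many UMIs, and all 5 lay below, and 4 more with fewer UMIs lay below too. Of the NODAL list 6 of 21 lay below and 1 above, and of the WNT list 4 of 18 below and 2 above. The BMP list had 4 of 11 below and 0 above, and the mesenchymal list 2 of 5 below and 0 above. Of the pluripotency list 2 of 9 lay below and 3 above. In the DNA methylation list 0 of 8 lay below and 5 above, in the primed list 0 of 12 and 4, and in the anterior list 0 of 6 and 2. *Fgf8* divided these cells, so the values describe the division and nothing is read from these shares. First by the higher of the ratios in both libraries was *Wnt3*, at 1.12 CPM in Fgf8-low and 15.4 CPM in Fgf8-high control cells and at 2.13 and 15.4 CPM in cKO cells. *Nodal* was among the 10 lowest at 4.40 and 27.9 CPM in control and 8.53 and 35.7 CPM in cKO cells, as was *Tdgf1* at 40.6 and 133 CPM and at 32.3 and 114 CPM. Also among the 10 lowest were the WNT antagonist *Frzb*, the ligand *Wnt8a*, the protocadherin *Pcdh7* and the transcription factors *Eomes*, *Olig1* and *Gsc*. *Eomes* was 0.240 (0.208 to 0.277) of the Fgf8-high level in control and 0.247 (0.205 to 0.294) in cKO cells.

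In the other direction *Sox3*, a SOXB1 factor of early neural tissue, was 1.52 times (1.31 to 1.78) the Fgf8-high level in the control and 1.57 times (1.34 to 1.83) in the cKO library. The anterior gene *Otx2* was at 1.25 and 1.34 times, and the primed genes *Sall2* at 1.39 and 1.36 times and *Foxd3* at 1.24 and 1.45 times. The 5 DNA methylation genes were *Qser1* (1.26 and 1.31 times), *Tet1* (1.17 and 1.28), *Dnmt3b* (1.18 and 1.19), *Dnmt3a* (1.18 and 1.15) and the histone demethylase family gene *Jmjd1c* (1.12 and 1.12). Of the 11 anterior genes *Otx2* and *Sox3* were the ones with intervals above 1 in both libraries, while *Sox11* was at 0.984 and 1.17 times. *Cdh2* went opposite ways, at 0.647 (0.534 to 0.784) of the Fgf8-high level in control and 1.27 (1.07 to 1.51) times it in cKO cells, and this difference was not tested. The 10 genes highest against Fgf8-high cells were *Gm26787*, *Nexmif*, *Gadd45g*, *Nxph1*, *Pde8b*, *Cobl*, *Slc35d3*, *Mindy2*, *Prrg4* and *Usp49*. In cKO members the cell with the most UMIs of the gene held 50% of the *Nexmif* and 38.9% of the *Mindy2* UMIs. Much of each value there thus rests on 1 cell. Among them *Prrg4* was the most abundant in members, at 35.8 against 17.8 CPM in the control and 32.0 against 17.4 CPM in the cKO library. *Gadd45g*, a stress and differentiation gene, was at 7.35 against 2.51 CPM and at 6.25 against 2.86 CPM.

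**Figure D5:**
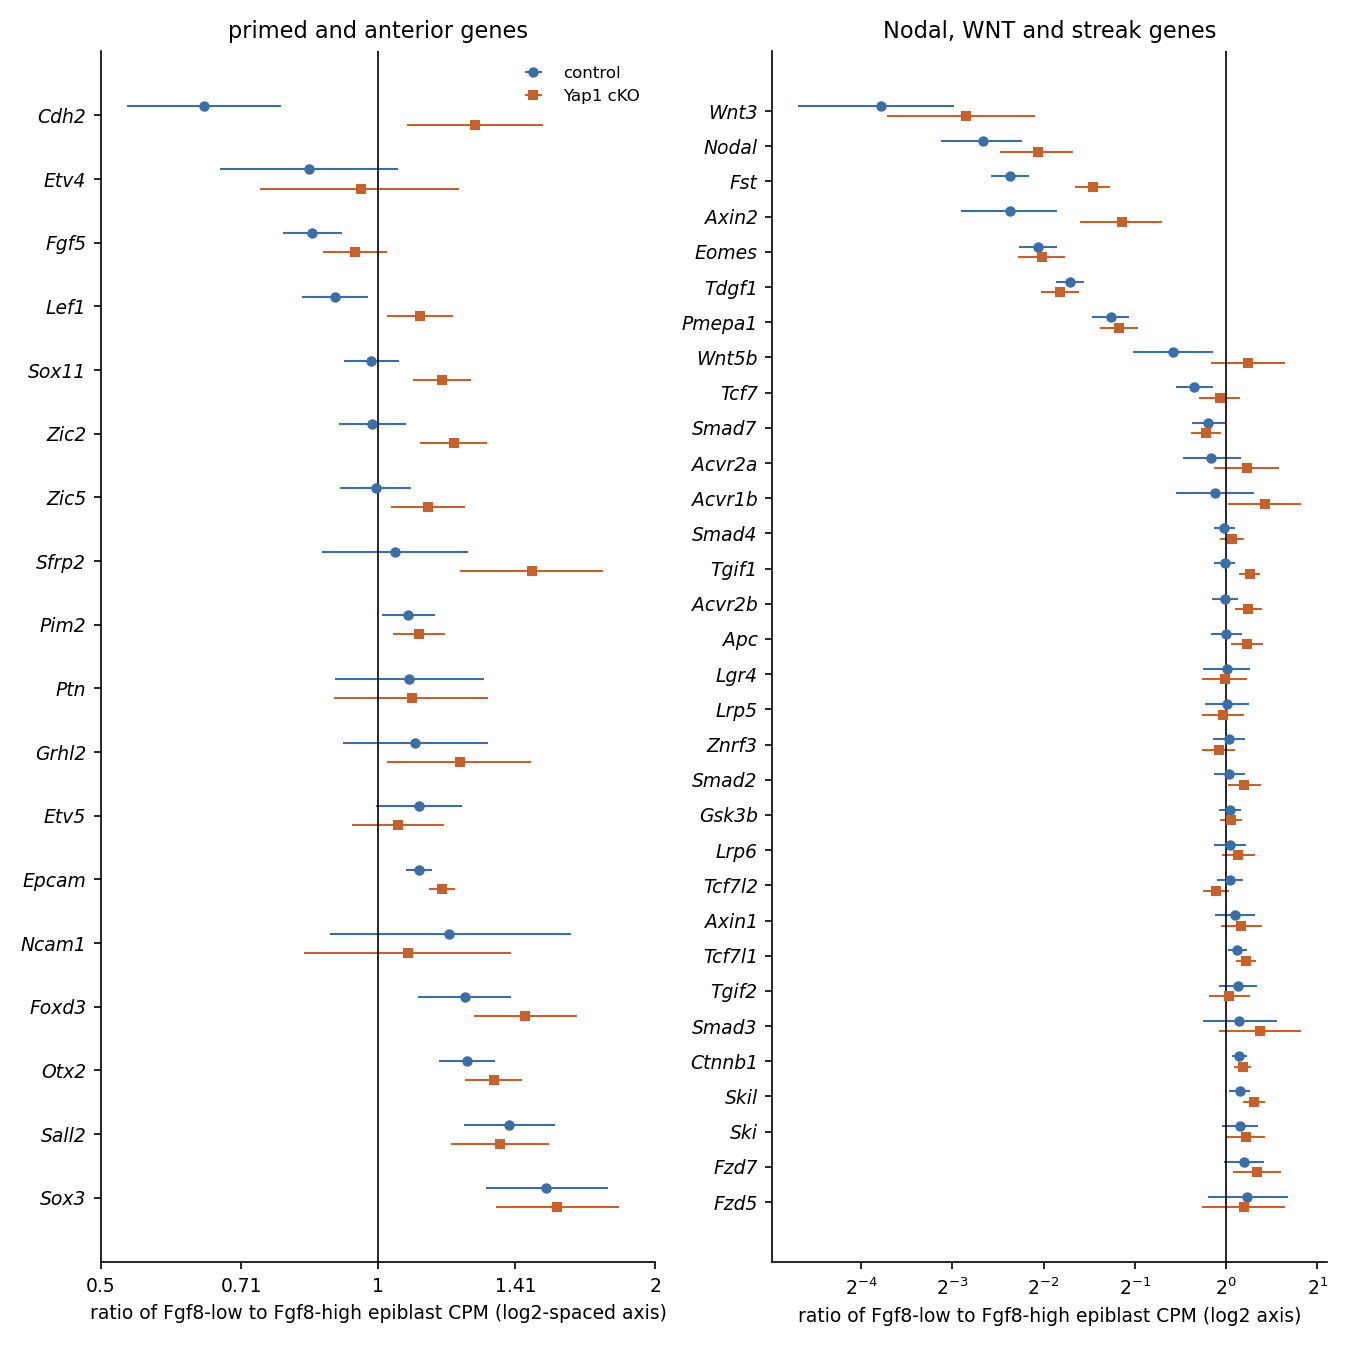
Ratio of Fgf8-low to Fgf8-high epiblast CPM (x axis, log2 spacing) in the control and the *Yap1* cKO library for the genes of the primed and anterior lists (left) and of the NODAL, WNT and streak lists (right) with at least 10 CPM in any of these populations; bars are 95% counting intervals. *Wnt3*, *Nodal*, *Fst*, *Axin2*, *Eomes*, *Tdgf1* and *Pmepa1* lie well left of 1 in both libraries, and most other genes of the right panel lie near 1. On the left the intervals of *Cdh2* and *Lef1* lie on different sides of 1 in the libraries. The points of *Zic2*, *Zic5* and *Sox11* do so too, with control intervals that span 1.

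Primitive streak cells (31 control and 60 cKO) were farther away. *Sp5*, a target of canonical WNT signals, was at 0.0799 CPM in members and 116 CPM in streak cells of the control library and at 0.711 and 36.5 CPM in the cKO library. The other 9 lowest genes were *Pcdh7*, *Foxa2*, *Gsc*, *Cyp26a1*, *Evx1os*, *Frzb*, *Wnt8a*, *Evx1* and *Wnt3*. Highest against the streak was *Nxph1*, which encodes a secreted ligand of neurexins, at 12.8 CPM in control and 8.10 CPM in cKO members, with 0 UMIs in control streak cells and 2 in cKO streak cells. *Gm13598*, *Gria1*, *Slc35d3*, *Cdh9*, *Gm15862*, *Kcnh8*, *Enpp3* and *Grin2b* were also among the 10 highest, and of these *Kcnh8*, a potassium channel gene, reached 27.8 CPM in control and 22.4 CPM in cKO members, against 3.15 and 3.97 CPM in the streak.

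Ranked by the lower of the values in both libraries, *Dqx1*, a gene with 0 UMIs in most members after thinning, varied most among them. Variance over mean of UMIs was computed in 158 control and 83 cKO members thinned to 38000 UMIs, where a gene that varies by counting alone has a value near 1, and the median over 6889 genes was 1.12 and 1.14. *Dqx1*, which encodes a helicase, came first with 16.3 and 29.4. It was at 0 in 82.3% and 79.5% of members, and single cells held up to 35 and 52 UMIs. The replication-dependent histone genes *Hist1h1b* (15.1 and 19.7) and *Hist1h2ae* (10.6 and 10.1) and the mitotic gene *Ube2c* (9.07 and 9.78) were among the 10 highest. So were *Fst* (10.9 and 8.71) and *Id1* (12.7 and 8.66), and the others were *Malat1* (13.7 and 19.98), *Actb*, *Golga3* and *Rps21*.

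Summed markers of visceral endoderm and extraembryonic ectoderm were higher in members of the cKO library. The 10 visceral endoderm genes not used in the gate summed to 23.7 CPM in control and 37.4 CPM in cKO members, with *Dab2* the most abundant and 1 gene at 0 in each library. Of them 2 were compared and 1 was at least 1.5-fold higher, *Spink1*. The genes the gate did use for that tissue were at 7.12 and 11.4 CPM in members, beside 1285 and 2716 CPM in all barcodes of the libraries. The 7 extraembryonic ectoderm genes summed to 6.16 and 9.38 CPM, with *Rhox5* the most abundant and 2 and 1 genes at 0. The 6 endoderm and node genes summed to 176 and 210 CPM, of which *Trh*, the thyrotropin releasing hormone gene, held 165 and 199 CPM. *Trh* was also at 203 and 218 CPM in Fgf8-high epiblast, so it does not mark another tissue here, and the other 5 genes summed to 11.35 and 10.8 CPM. The 9 mesoderm genes summed to 19.5 and 17.2 CPM, with 2 at 0 in each, and the 5 germ cell genes to 41.3 and 43.8 CPM. *Spink1* is 1 of the 10 visceral endoderm genes and gave 4.96 and 10.2 CPM of their sum, so the sum and *Spink1* are not separate results. *Dab2* was also at 13.15 and 10.05 CPM in Fgf8-high epiblast, so like *Trh* it does not mark another tissue here. The part of visceral endoderm RNA in the ratio of *Spink1* was not tested.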

How the data were processed

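The authors aligned the 10x Genomics 3′ reads to mm10 with Cell Ranger 7.1.0, per the labels, and deposited filtered matrices of raw UMI counts per gene and barcode, 1 library for each genotype. For each population the counts of its cells were added up and divided by their total UMIs (CPM). Intervals are exact Poisson for CPM, exact binomial for ratios and Clopper-Pearson for shares, at 95%, and cover counting error only. With 1 library per genotype no model was fitted and no test was made. A gene was compared from 100 UMIs over both libraries and counted as higher or lower from 1.5-fold. Shares of cells with a UMI and variances were taken after thinning to 38000 UMIs. Single genes were named from 24 lists (299 genes) or as the 10 farthest apart between libraries (with conditions on intervals, sex class and the share of 1 cell, 25%), between populations, or most variable. Gate genes, *Xist* and Y-linked genes were left out. Some genes that the rule names are not reported here. Members and lists were chosen with earlier results of these data known. The 32285 gene identifiers carry 32245 symbols. Alternatives changed the gate limits, doublets (scrublet in scanpy 1.11.5), scaling, free RNA, thinning and sex classes. Ratios and intervals were tried on simulated Poisson counts, which vary by counting alone as the intervals assume. That trial does not cover genes that vary more between cells, such as *Id1* and *Fst*. Python 3.11.15, numpy 2.4.6, scipy 1.17.1, pandas 2.3.3 and matplotlib 3.10.9 were used.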

Additional observations from a re-analysis of the deposited data

Results flagged for a closer look

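Both libraries are labelled female, yet 51.7% of control cells (409 of 791) and 15.5% of *Yap1* cKO cells (134 of 864) held Y-linked UMIs and none of *Xist*. Y-linked genes were left out of the comparisons of genes and served to divide cells into sex classes, and the share of cells that hold them differs between the libraries.

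*Tex21* was at 0.409 of the control level in cKO Fgf8-low cells and at 1.39 times that level in Fgf8-high cells, and at 1.48 times in extraembryonic ectoderm. The difference between the populations was not tested. In the control Fgf8-low cells 1 cell held 18.2% of its UMIs.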

How the results depend on the processing

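No paired analysis was possible because each genotype has 1 library, and for the same reason no replicate could be left out. At 0 *Fgf8* UMIs 88 control and 34 cKO cells were left. The Fgf8-low share of gated epiblast in the control and the cKO library was 35.1% and 15.0% at 0 UMIs, 79.3% and 51.5% at 5 or fewer, 73.0% and 48.4% when the gate was applied after thinning, and 75.7% and 54.1% when *Fgf8* alone was counted after thinning. The percentage of genes at least 1.5-fold higher was 2.20% from 50 UMIs, 0.224% from 300 UMIs and 4.71% in Y-bearing cells, and of those lower 2.68%, 0.478% and 9.57%, so that it moves with the depth of the genes compared. On the log2 scale *Yap1* was at -1.84 and *Amotl2* at -1.36 in Y-bearing cells (all cells -4.74 and -1.89). *Id1* was at 2.21 at 0 *Fgf8* UMIs, 1.22 with the gate after thinning, 1.11 in Xist-bearing and 1.21 in Y-bearing cells (all cells 1.62). The sign reversed for *Tex21* at 0 *Fgf8* UMIs (0.22, all cells -1.29) and for *Fst* (-1.82) and *Zeb2* (-0.37) in Y-bearing cells. *Tex21* was at -0.36 with up to 5 *Fgf8* UMIs, -0.22 with the gate after thinning and -1.999 without the cell with the most UMIs, and *Egr1* at -0.34 with the gate after thinning (all cells -0.98). *Wnt3* had -1.73 at 0 *Fgf8* UMIs, 1.70 with up to 5 and 1.48 with the gate after thinning (all cells 0.93). *Fzd7* was at 0.13 in Y-bearing cells (all cells -0.55). For 36 genes over all alternatives, 492 values lay within the interval of the value reported, 41 outside it, and 3 were the reversals of *Tex21*, *Fst* and *Zeb2*. At most 5% mitochondrial UMIs, doublets left out and at least 10 UMIs of *Pou3f1*, *Slc7a3* and *Utf1* kept the same 161 and 87 members. Their 36 values each and the signs of these were thus fixed in advance. Scaling by the median gene ratio or without ribosomal protein and mitochondrial genes moved all genes by a common factor. These counts are therefore no measure of robustness. In all, 523 values kept the sign and 13 had the other one, of which 6 in Y-bearing cells, 3 at 0 *Fgf8* UMIs and 2 with the gate after thinning. The cause was not tested. The median ratio of the YAP target list lay between 0.759 and 0.940. Genes with few UMIs limit these comparisons, and Y-bearing cKO values rest on 7 cells.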
